A study of Bos taurus with 6 samples.

Results

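bta-miR-423-5p, bta-miR-423-3p, bta-miR-151-5p and bta-miR-151-3p are the arms of 2 microRNA (miRNA) precursors, miR-423 and miR-151, that the deposited count table lists with both arms in every library. These 4 miRNAs stand among 359 known bovine miRNAs and 706 listed miRNAs in all. They were taken by name, and the precursors were chosen by measured values of these same libraries: bta-miR-423-3p and bta-miR-151-5p had some of the smallest unadjusted p-values among known miRNAs when the diet groups were compared. Differences between the groups are therefore given for the 4 miRNAs as a description. A test fitted over the whole table is quoted for its fold changes and for how many of the 4 it called beside the share of all miRNAs, and no p-value is read as evidence for them.

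Serum was drawn after 30 days of feeding from 6 female Holstein cows in mid lactation (101 ± 10 days in milk, per the labels), and the small RNA of serum extracellular vesicles (EVs), the membrane-bound particles that cells release, was sequenced as 1 library per cow. The 3 control cows were fed a total mixed ration, and the 3 tested cows were fed a ration in which whole cotton seed and soybean hull took the place of part of the alfalfa hay. The comparison asks whether the diet changed the miRNAs carried by circulating EVs. EVs were captured on an affinity membrane from whole serum, so they come from an unknown mixture of cells, and fewer vesicles from a cell type cannot be told apart from fewer miRNA copies per vesicle.

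A miRNA precursor is an RNA hairpin. After cutting, the strand from its left side (the 5p arm) and the strand from its right side (the 3p arm) form a short duplex, one strand of which is usually loaded into an Argonaute protein while the other is degraded. Bases 2 to 8 of the loaded strand, the seed, do most of the pairing with target messenger RNAs, so the arms of one hairpin address different targets. Since both arms come from the same transcript, their ratio in one library does not depend on library size. Within a single kind of cell, it also need not depend on how much of the precursor was made. Pooled over a mixture of cells, it can still vary with the share of each kind. miR-423 is among the miRNAs commonly measured in serum and plasma. miR-151 belongs to the miR-28 family and is known for its part in cell migration.

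The mature sequences of the deposited table are shown because the arm ratio compares these strands, in its DNA letters from 5′ to 3′ with the seed in capitals.
bta-miR-423-5p: tGAGGGGCagagagcgagacttt
bta-miR-423-3p: aAGCTCGGtctgaggcccctcagt
bta-miR-151-5p: tCGAGGAGctcacagtctagt
bta-miR-151-3p: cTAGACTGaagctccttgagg
The miR-423 arms are 23 and 24 nt long and the miR-151 arms are both 21 nt. The 4 seeds differ from each other. Folded against each other with RNAduplex, the arms of miR-423 formed 18 base pairs and those of miR-151 also 18, with 2 unpaired bases at the 3′ end of the 3p arm and 1 at the 3′ end of the 5p arm in both. bta-miR-423-5p is rich in purines, with 10 G and 6 A, and had a GC content of 56.5%, against 62.5% in its partner and 52.4% in both arms of miR-151. In RefSeq's gene table, built on ARS-UCD2.0 and so on a later assembly than the files, MIR423 lies inside NSRP1, the gene of a splicing regulator of nuclear speckles, and MIR151 lies inside PTK2, the gene of focal adhesion kinase. Neither has another miRNA gene within 10 kb there.

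Library totals were 1226928 to 2088249 counts on known miRNAs, and levels are given as CPM, the counts per 1000000 of these. PCR copies one molecule into many reads, so all intervals below cover counting error only, and counts of unlike sequences also carry how well each is ligated and amplified, which was not measured. Each group was 3 cows, and no label assigns libraries to batches. Vesicle preparations from serum can carry RNA of other cells, so markers were read in each library. The 3 red cell miRNAs (bta-miR-451, bta-miR-144 and bta-miR-486) summed to 13468 to 28434 CPM in control cows and 8621 to 59608 CPM in tested cows, with the highest sum in tested cow 1. The 3 platelet and vessel miRNAs (bta-miR-126-3p, bta-miR-126-5p and bta-miR-223) summed to 12.6 to 100.2 CPM and 39.9 to 211.7 CPM. Of 4 white blood cell miRNAs 3 were listed, bta-miR-142-3p was not, and they summed to 194 to 364 CPM and 78.1 to 428 CPM. The liver miRNA bta-miR-122 was at 182 to 462 CPM and 150 to 598 CPM. None of these listed markers was at 0 in any library, and their ranges overlapped between the groups.

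Together the 4 strands made up between 4.51% (tested cow 2) and 6.51% (control cow 1) of the known miRNA counts. bta-miR-151-5p was the highest of the 4 and bta-miR-423-5p the second in 6 of 6 libraries, followed by bta-miR-423-3p and then bta-miR-151-3p. The order of the leading pair was close: bta-miR-423-5p stood at 0.602 to 0.958 of the bta-miR-151-5p count of the same library, and within each group the CPM ranges of the pair overlapped. The order of the minor arms was clearer, as bta-miR-423-3p had 1.18 to 1.99 times the counts of bta-miR-151-3p in each library and their ranges did not overlap within either group.

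bta-miR-423-5p had 29907, 25458 and 17061 CPM in control cows 1, 2 and 3, while tested cows 1, 2 and 3 had 22247, 16129 and 24110 CPM. The groups overlapped widely, with the lowest values in tested cow 2 and control cow 3. The means were 24142 ± 6524 CPM (SD, n = 3) and 20829 ± 4175 CPM (SD, n = 3), the widest spread within groups among the 4 strands. It ranked 11 to 14 among the known miRNAs.

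bta-miR-423-3p, the minor arm, had 2281, 2361 and 2764 CPM among control animals and 1577, 1700 and 1809 CPM among tested animals. All tested cows were below all control cows. Control cows had a mean of 2469 ± 259 CPM (SD, n = 3) and tested cows one of 1695 ± 116 CPM (SD, n = 3), so the tested mean was 68.7% of the control mean. Control cow 3 had the highest level of this arm and, within its group, the lowest of the other arm.

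bta-miR-151-5p had 31481, 29787 and 28341 CPM under the control diet and 23231, 26144 and 25271 CPM under the tested diet. The groups did not overlap, and cows of a group differed little, with a coefficient of variation of 5.26% among control and 6.01% among tested cows, against 27.0% and 20.0% for bta-miR-423-5p. The means were 29870 ± 1572 CPM (SD, n = 3) and 24882 ± 1495 CPM (SD, n = 3), and the tested mean was 83.3% of the control mean.

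bta-miR-151-3p was the lowest of the 4, with 1455, 1519 and 1391 CPM under the control diet and 1336, 1157 and 1009 CPM under the tested diet. The groups did not overlap, though tested cow 1 lay just below control cow 3, and the 95% exact binomial intervals of this pair, 1272 to 1402 CPM and 1339 to 1443 CPM, overlapped. Mean levels were 1455 ± 64.0 CPM (SD, n = 3) and 1167 ± 164 CPM (SD, n = 3).

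**Figure D1:**
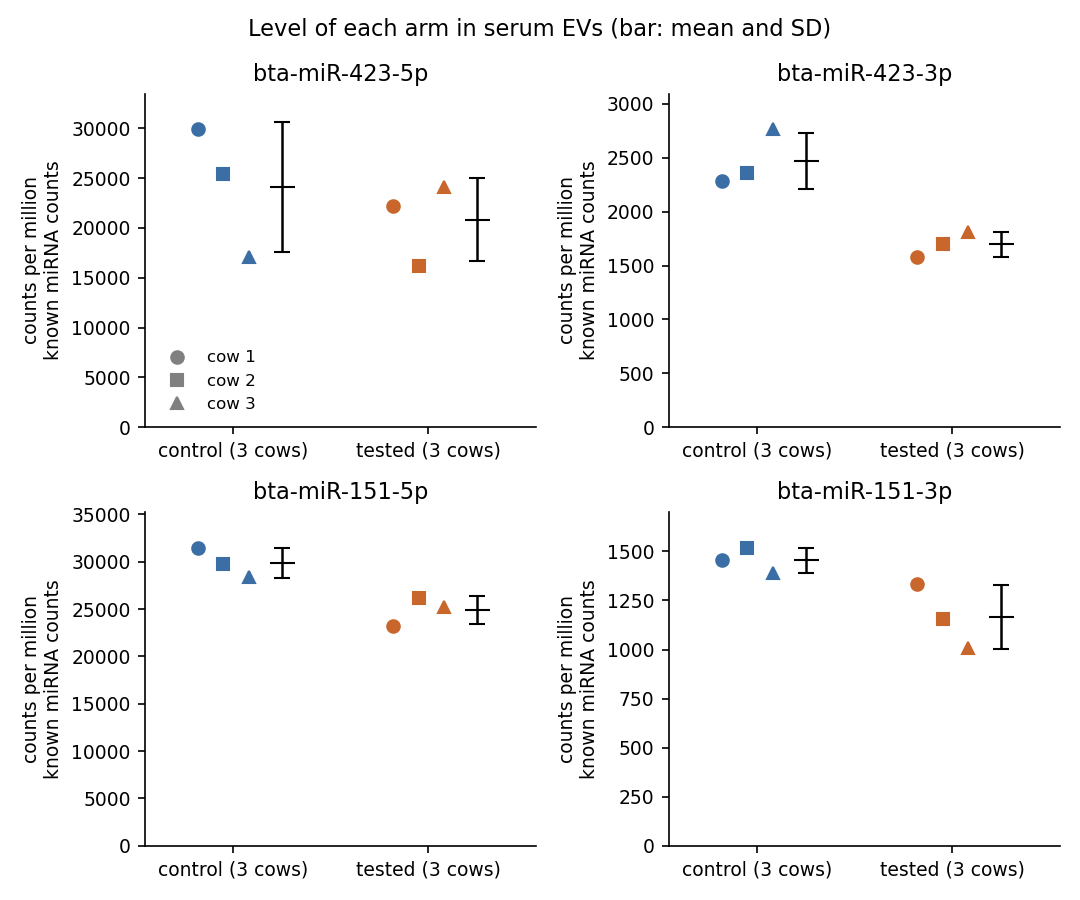
Level of each strand in CPM of known miRNA counts (vertical axes, from 0) for the 3 control cows (blue) and 3 tested cows (orange); marker shapes are the cow numbers and the black bar is mean and SD. The tested cows lie below the control cows for bta-miR-423-3p, bta-miR-151-5p and bta-miR-151-3p and overlap them for bta-miR-423-5p.

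A quasi-likelihood test in edgeR was fitted to the whole table, on the 623 miRNAs with at least 10 counts in all. All 4 strands passed this filter. The log2 fold change, tested over control, was -0.27 (standard error 0.178) for bta-miR-423-5p, -0.61 (standard error 0.250) for bta-miR-423-3p, -0.32 (standard error 0.135) for bta-miR-151-5p and -0.37 (standard error 0.280) for bta-miR-151-3p. The median of the 4 was -0.34, and 4 of 4 were negative, beside a median of 0.07 over all 623 miRNAs, 46.5% of which were negative. Among the 43 known miRNAs at least as abundant as bta-miR-151-3p, 26 were negative and the median was -0.03. Of the 95 other known miRNAs with at least 100 counts in every cow, 2 had a lower log2 fold change than bta-miR-423-3p.

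None of the 4 was called at an unadjusted p under 0.05 with an absolute log2 fold change over 1, where 3.21% of the 623 miRNAs were called, and none at an adjusted p (Benjamini-Hochberg, edgeR) under 0.05, where 0.161% were. At an unadjusted p under 0.05 alone, 2 of the 4 were lower in the tested group, bta-miR-423-3p and bta-miR-151-5p, where 1.93% of the 623 miRNAs were. The tested cows lay wholly below the control cows for 3 of the 4 by CPM, as they did for 2.24% of the 312 known miRNAs in the fit. The strands were chosen from this contrast, so nothing is read from these counts.

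The level depends on the total it is scaled to. Taken per 1000000 clean reads, the authors' own scale, the median log2 difference of the 99 known miRNAs with at least 100 counts in every cow was -0.44, against 0.03 by known miRNA counts. On that scale bta-miR-423-5p was the only one of the 4 whose groups did not overlap, with 3073 to 3999 counts per 1000000 for control cows against 1892 to 2515 for tested cows. All 4 strands were lower in the tested group on each of the 4 scales tried. Relative to the median of those 99 miRNAs, which any scale leaves the same, the tested minus control log2 differences were -0.23 for bta-miR-423-5p, -0.57 for bta-miR-423-3p, -0.30 for bta-miR-151-5p and -0.36 for bta-miR-151-3p.

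**Figure D2:**
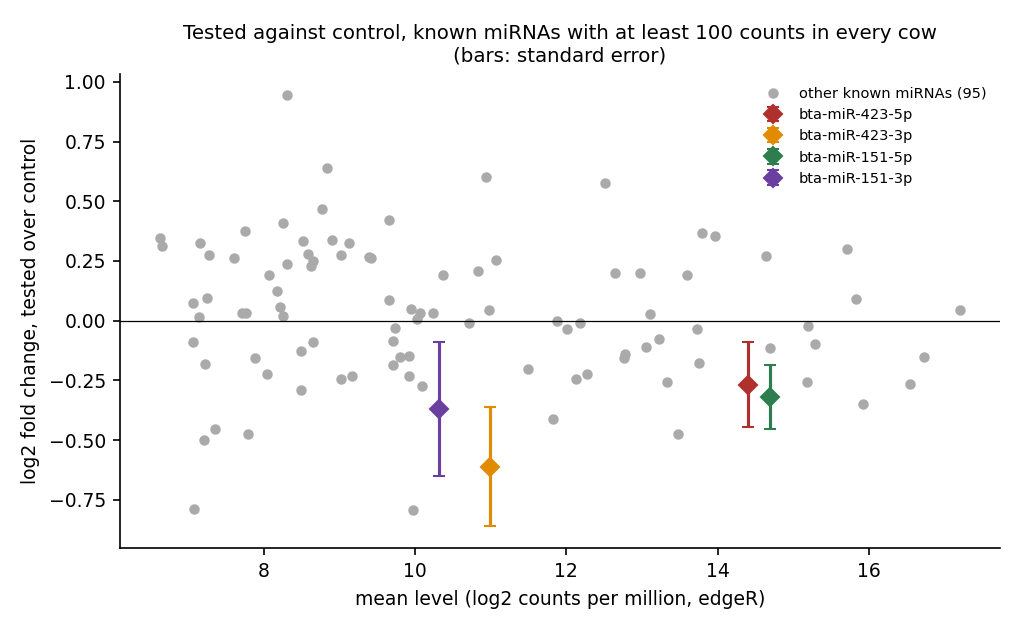
Log2 fold change of tested over control (vertical) against mean level in log2 CPM (horizontal), both from edgeR, for the 99 known miRNAs with at least 100 counts in every cow; diamonds with standard error bars are the 4 strands, grey points the 95 others. All 4 diamonds are below 0, between -0.27 and -0.61, within the spread of the grey points from -0.79 to 0.94.

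The 5p arm led in both precursors and in every cow. For miR-423 the 5p arm had 13.1, 10.8 and 6.17 times the counts of the 3p arm in control cows 1, 2 and 3. Tested cows 1, 2 and 3 had 14.1, 9.49 and 13.3 times. Control cow 3 stood lowest and tested cow 1 highest, 2.29 times apart, and the groups overlapped. The 95% counting intervals of the 3 highest cows overlapped each other, from 12.7 to 13.6 in control cow 1 to 13.5 to 14.8 in tested cow 1, while those of the 3 others stood apart, with 10.5 to 11.1 in control cow 2 and 9.15 to 9.84 in tested cow 2. In shares, the 3p arm made up 13.9% of the miR-423 counts in control cow 3 and 6.62% in tested cow 1.

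For miR-151 the 5p arm had 21.6, 19.6 and 20.4 times the counts of the 3p arm under the control diet and 17.4, 22.6 and 25.0 times under the tested diet. The control cows lay inside the range of the tested cows. The highest and the lowest ratio were 1.44 times apart, and their counting intervals, 16.5 to 18.3 in tested cow 1 and 24.0 to 26.2 in tested cow 3, did not overlap. The 3p arm made up 3.84% to 5.44% of the miR-151 counts.

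On the log2 scale control cows had a mean miR-423 arm ratio of 3.26 ± 0.564 (SD, n = 3) and tested cows one of 3.60 ± 0.309 (SD, n = 3). The difference of 0.34 was smaller than the spread within groups (SD 0.455), and it moved with single cows, to 0.03 without control cow 3, 0.57 without control cow 1 and 0.52 without tested cow 2. The log2 ratio of miR-151 was on average 4.36 ± 0.0713 (SD, n = 3) and 4.42 ± 0.271 (SD, n = 3), and the difference of 0.06 was also smaller than the spread within groups (SD 0.198). It was -0.05 without tested cow 3 and 0.21 without tested cow 1.

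Over the 6 cows the SD of the log2 arm ratio was 0.448 for miR-423 and 0.181 for miR-151, while counting error alone gives at most 0.0339 and 0.0366 in a single library. Without control cow 3 the SD of miR-423 was 0.241. The marker lists were set beside the miR-423 ratio in each cow, after the values were seen. From the lowest to the highest miR-423 ratio (6.17, 9.49, 10.8, 13.1, 13.3 and 14.1), the summed level of the platelet and vessel markers was 12.6 CPM in control cow 3, 39.9 CPM in tested cow 2, 53.3 CPM in control cow 2, 100.2 CPM in control cow 1, 211.7 CPM in tested cow 3 and 147 CPM in tested cow 1. The order was the same except that tested cows 1 and 3 changed places. In control cow 3 the single markers of this list were at only 2.01 to 6.53 CPM. bta-miR-126-5p alone had the order of the sum, and bta-miR-126-3p rose with the ratio in every cow but tested cow 3. bta-miR-223 departed from it, at 11.4 CPM in tested cow 1 against 14.9 and 21.5 CPM in control cows 2 and 1. In that order of cows the liver marker was at 182, 200.1, 252, 462, 149.9 and 598 CPM, rising with the ratio in every cow but tested cow 3. The red cell markers were at 13468, 10840, 16300, 28434, 8621 and 59608 CPM and the white blood cell markers at 194, 233, 204, 364, 78.1 and 428 CPM, with tested cow 3 lowest and tested cow 1 highest in both lists. Single white blood cell markers differed. bta-miR-150 had the same lowest and highest cow, while bta-miR-142-5p was highest in control cow 1. bta-miR-155 was at 118, 109, 67.7, 63.1, 22.5 and 36.7 CPM in that order of cows. From the lowest to the highest miR-151 ratio (17.4, 19.6, 20.4, 21.6, 22.6 and 25.0), the platelet and vessel markers summed to 147, 53.3, 12.6, 100.2, 39.9 and 211.7 CPM, which is not the same order. The red cell markers were at 59608, 16300, 13468, 28434, 10840 and 8621 CPM, falling as the ratio rose in every cow but control cow 1. The liver marker was at 598, 252, 182, 462, 200.1 and 149.9 CPM and the white blood cell markers at 428, 204, 194, 364, 233 and 78.1 CPM. Both were highest at the lowest ratio and lowest at the highest. The part of any of these lists in either ratio was not tested.

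**Figure D3:**
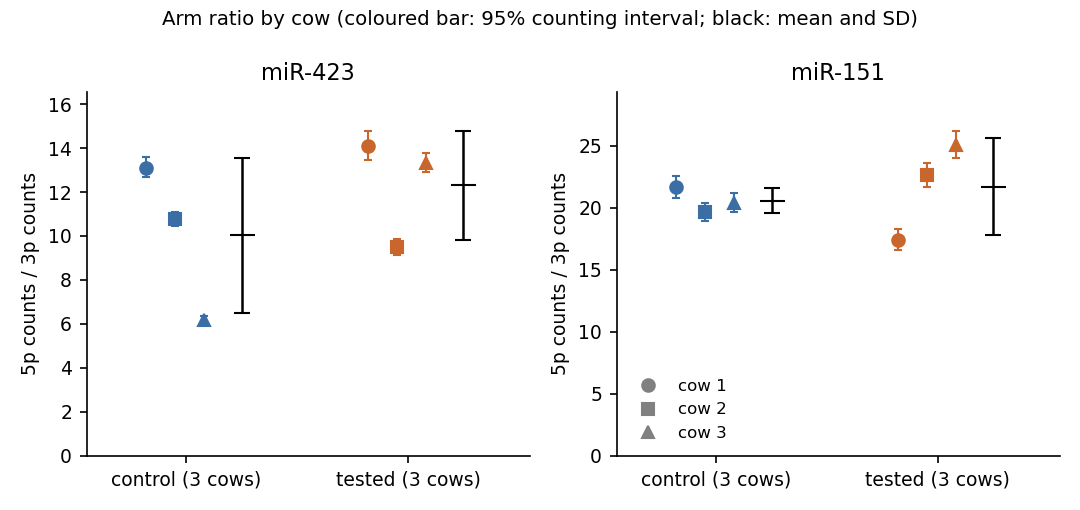
Counts of the 5p arm over those of the 3p arm (vertical axes, from 0) in each control cow (blue) and tested cow (orange) for miR-423 and miR-151; coloured bars are 95% counting intervals and black bars the mean and SD of 3 cows. The miR-423 ratio runs from 6.17 in control cow 3 to 14.1 in tested cow 1, and the miR-151 ratio from 17.4 to 25.0.

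The table lists 21 known precursors with both arms under one name, 10 of which have at least 100 counts on each arm. The 5p arm led in 6 of the 10. By pooled counts, miR-423 had a ratio of 10.5 and miR-151 one of 21.1, places 6 and 8 of the 10 from the most 3p-leaning. Next to them were bta-miR-6119 with 3.81, bta-miR-425 with 12.5, which lay between them, and bta-miR-30b with 360. The range of the 10 ran from bta-miR-22, whose 3p arm had 92.8 times the counts of the 5p arm, to bta-let-7a, whose 5p arm had 1260 times those of the 3p arm. Among the 6 precursors with counts of both arms in every cow, miR-151 had the smallest SD of the log2 ratio and miR-423 the second smallest. The other 4 had an SD of 0.881 (bta-let-7a) to 2.55 (bta-miR-22), but their lowest arm count in a cow was 2 to 39, against 1935 for miR-423 and 1639 for miR-151, and counting error in them was larger, up to 1.02 on the log2 scale. Only miR-423 and miR-151 of all the pairs had at least 1000 counts on both arms.

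**Figure D4:**
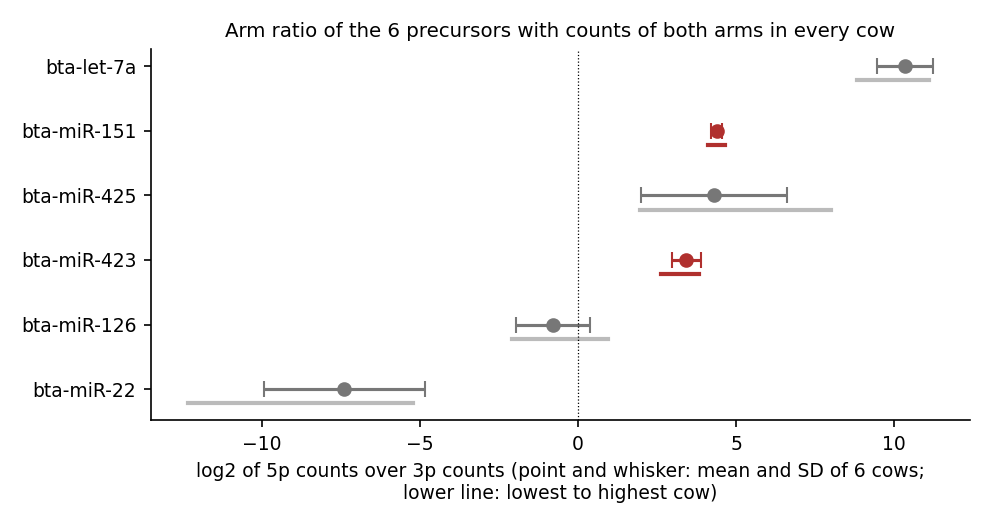
Log2 of 5p over 3p counts (horizontal) for the 6 precursors with counts of both arms in every cow; points and whiskers are the mean and SD of 6 cows and the line under each runs from the lowest to the highest cow. miR-423 and miR-151 (red) sit at 3.43 and 4.39 with the shortest lines.

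Likeness of pattern was measured as the SD over the 6 cows of the log2 ratio of one miRNA to another, so that a lower value means that both kept a more constant ratio. It was taken against 98 other known miRNAs with at least 100 counts in every cow, and it is a description of these 6 libraries. The arms of miR-151 followed each other (SD 0.181), the 3p arm being place 10 of 98 for the 5p arm and the 5p arm place 3 for the 3p arm. The arms of miR-423 did not follow each other closely (SD 0.448): the 3p arm was place 57 of 98 for the 5p arm and the 5p arm place 46 for the 3p arm. Places moved for both precursors with 1 cow left out. For bta-miR-151-5p the place of its partner was 21 when control cow 1 was left out and 20 when control cow 3 was, and for bta-miR-151-3p it ran from 1 without tested cow 1 to 8 without tested cow 2. Without control cow 3 the places of the miR-423 arms were 10 and 14, so the distance between the miR-423 arms rests mostly on that cow. In the paper's measurements, the sample named Control 3 had the lowest RNA concentration of the 6, though not the lowest miRNA content. The part of this in the arm ratio was not tested.

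The miRNAs nearest to bta-miR-423-5p were bta-miR-375 (SD 0.174), known from endocrine and epithelial cells, bta-miR-146b (SD 0.205), known from inflammation, and bta-miR-99b (SD 0.209). Nearest to bta-miR-423-3p were bta-let-7a-5p (SD 0.208), bta-miR-151-5p (SD 0.210) and bta-let-7d (SD 0.234). bta-let-7a-5p, like bta-miR-423-3p, was highest in control cow 3, at 85283 CPM against 56100 and 67594 CPM in the other control cows. bta-miR-423-3p and bta-miR-151-5p were both chosen from the contrast of the diets and both were lower in the tested group, so nothing is read from their likeness. Nearest to bta-miR-151-5p were bta-miR-21-5p, bta-miR-125a and bta-miR-30e-5p, with SDs of 0.111, 0.111 and 0.112. Nearest to bta-miR-151-3p were bta-miR-652 (SD 0.139), bta-miR-362-5p (SD 0.144) and bta-miR-151-5p (SD 0.181). These names depended on single cows: with 1 cow left out, between 0 and 3 of the 3 nearest miRNAs stayed among the 3 nearest.

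**Figure D5:**
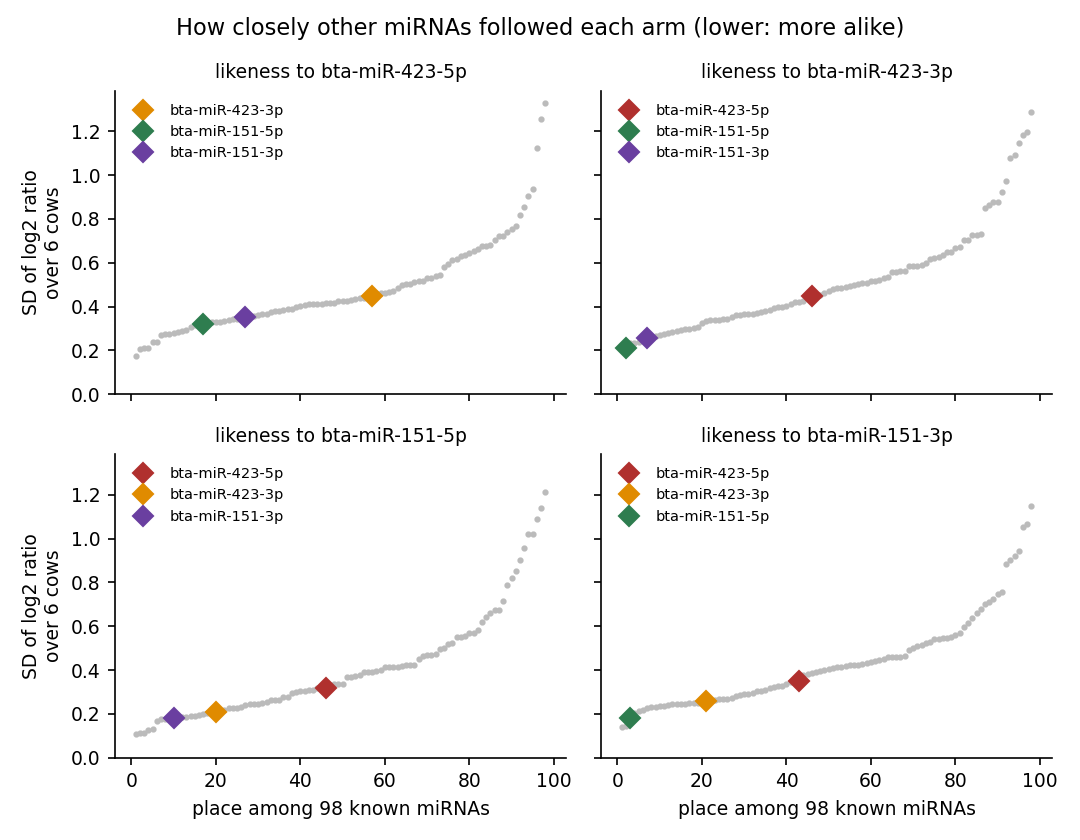
SD over 6 cows of the log2 ratio of each strand to each of 98 other known miRNAs (vertical), in order from most to least alike (horizontal), one panel per strand; diamonds are the other 3 strands. The diamond of the partner arm is at place 57 for bta-miR-423-5p and 46 for bta-miR-423-3p, and at place 10 for bta-miR-151-5p and 3 for bta-miR-151-3p.

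Sequences like those of the 5p arms were listed under other names at low counts, and they are shown because reads of such rows and of the abundant arm could be exchanged in counting. Capitals mark the longest run of bases shared with the 5p arm named in each line.
bta-miR-28, against bta-miR-151-5p: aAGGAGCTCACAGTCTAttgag
novel184_mature, against bta-miR-151-5p: CGAGGAGCTCACAGTCcagt
novel143_mature, against bta-miR-423-5p: tgcGGGGCAGAGAGCGAGACc
novel235_mature, against bta-miR-423-5p: TGAGGGGCAGAGAGCcagag
novel110_mature, against bta-miR-423-5p: TGAGGGGCAGAGAGagagaga
bta-miR-28, a member of the same family as miR-151, shares a run of 16 bases with bta-miR-151-5p, shifted so that its bases 2 to 8 are other letters. It had 13, 27 and 0 counts under the control diet and 0 in each tested cow, and 0 counts allow up to 2.45 CPM in tested cow 1, the shallowest library. bta-miR-708 and bta-miR-3184 are not among the listed rows. novel184_mature, newly predicted by the authors, starts at base 2 of bta-miR-151-5p and carries 1 substitution, T18C, counted from the 5′ end of bta-miR-151-5p. Control cows had 22, 38 and 37 of its counts and tested cows 17, 14 and 17, 0.0285% to 0.0656% of the bta-miR-151-5p counts of the same library.

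The seed of bta-miR-423-5p was shared by 6 other rows, one known (bta-miR-11971, with 1 count in all libraries together) and the rest newly predicted. The seeds of the other 3 strands were shared by no other row. novel143_mature shares a run of 17 bases with bta-miR-423-5p and differs from it by A3C inside the seed and by T21C, counted from the 5′ end of bta-miR-423-5p. Control cows had 19, 52 and 14 of its counts and tested cows 25, 23 and 23, 0.0412% to 0.102% of the bta-miR-423-5p counts. novel110_mature, which has the seed of bta-miR-423-5p and a shared run of 14 bases, was the most abundant of these rows, with 189 counts in all libraries together. Control cows had 0, 64 and 66 of its counts and tested cows 30, 27 and 2, at most 0.194% of the bta-miR-423-5p counts, in control cow 3. novel235_mature had 28, 45 and 0 counts under the control diet and 0 in each tested cow. No row shared 14 or more bases with either 3p arm. When every row that shares at least 14 bases was added to its 5p arm, the tested minus control difference of the log2 arm ratio stayed at 0.34 for miR-423 and 0.06 for miR-151.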

How the data were processed

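The deposited count table holds whole-number counts without normalization for 706 miRNAs in 6 libraries. The submitters' processing notes name cutadapt 1.14, Bowtie and the assembly ARS-UCD1.2. Per the methods, other RNA was filtered out by BLAST and Rfam searches, known miRNAs were named from miRBase and others were predicted with miRDeep2. The counting tool is not given in the sources used here. A second table that the authors deposited as TPM holds RPM values: each equals the count divided by the clean reads of the library. The lengths the authors deposited belong to the listed sequences. Columns with the authors' own fold changes and p-values, and their list of differently expressed miRNAs, were not used.

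Levels (CPM) are counts per 1000000 bta- counts. Arm ratios are 5p over 3p counts of one library, with 95% exact binomial (Clopper-Pearson) intervals. The groups were compared with edgeR 4.0.16 in R 4.3.3 (TMM, estimateDisp, glmQLFit, glmQLFTest) on 623 miRNAs with at least 10 summed counts, 312 known and 311 newly predicted, with Benjamini-Hochberg adjustment. The procedure was checked on simulated counts. Arms were folded with RNAduplex 2.7.2. Python 3.11.15, SciPy 1.17.1, pandas 2.3.3 and Matplotlib 3.10.9 were used. The members, the marker lists and the rules were chosen with earlier results of these data known. Named miRNAs are the 4 strands, their 3 nearest by pattern, the relatives bta-miR-28, bta-miR-708 and bta-miR-3184 where listed, known miRNAs with the same seed, rows with a nested sequence, the precursors next in arm ratio, and the markers. novel110_mature, novel143_mature, novel184_mature, novel235_mature, bta-miR-22 and bta-let-7a, the latter pair as the ends of the range of arm ratios, fall outside this rule and were chosen after their values were seen. Alternatives were DESeq2 1.42.0, other factors and filters, known miRNAs only, the replicate number as a block, other totals, pooled counts, a pseudocount of 1, other minimum counts and each library left out. After the data were seen, rows sharing 14 bases were merged.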

Additional observations from a re-analysis of the deposited data

How the results depend on the processing

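All 4 log2 fold changes stayed negative under each of the 14 other fits, but single cows moved their size. That of bta-miR-423-5p (-0.27) was -0.14 without control cow 1, -0.16 without tested cow 2 and -0.42 without control cow 3, and its log2 difference of level (-0.20) was -0.02 without control cow 1 or tested cow 2, -0.43 without control cow 3 and -0.31 without tested cow 3. That of bta-miR-151-3p (-0.37) was -0.21 without tested cow 3. The number of miRNAs called over the whole table was 20, with 13 under filterByExpr, 6 with known miRNAs only and 12 with the replicate number as a block. It stayed between 17 and 23 with a cow left out, was 26 with DESeq2 and, in a setting added after seeing the data, 18 with rows sharing 14 bases merged. The correlations of same-numbered cows' deviations across known miRNAs were 0.116, 0.0399 and 0.0553, and those of other pairs ran from -0.103 to 0.0484. Each control cow correlated best with the tested cow of its number, while tested cow 2 correlated best with control cow 3 (0.0484). All these values were small and do not settle whether the numbers pair the cows. The paper describes no pairing, so the numbers were taken as names. Scaled to clean reads, the tested minus control log2 differences of level were -0.67 for bta-miR-423-5p, -1.01 for bta-miR-423-3p, -0.73 for bta-miR-151-5p and -0.80 for bta-miR-151-3p, against -0.20, -0.54, -0.26 and -0.33 by known miRNA counts, as known miRNA counts per clean read were lower on average in tested cows. With a cow left out, the SD of the log2 arm ratio of miR-423 ran from 0.241 (without control cow 3) to 0.501, and its difference between groups from 0.03 to 0.57. The place of the partner arm ran from 10 to 71 for bta-miR-423-5p, 14 to 56 for bta-miR-423-3p, 7 to 21 for bta-miR-151-5p and 1 to 8 for bta-miR-151-3p. No row lay inside a member's sequence or held it, so that alternative changed nothing. Depth limits only the low rows such as bta-miR-28.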
